A study of Mus musculus with 15 samples.

Results

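The replication-dependent histone genes encode the core histones H2A, H2B, H3 and H4 and the linker histone H1 that package newly copied DNA. They were taken here as every gene of the deposited expression table whose symbol starts with *Hist*, a cluster number and the letter h, which gave 64 of the 21669 genes with a symbol. Among them were 6 genes of H1, 15 of H2A, 19 of H2B, 11 of H3 and 13 of H4. By cluster, 52 belong to *Hist1*, 8 to *Hist2*, 3 to *Hist3* and 1 to *Hist4*.

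Most of these genes are transcribed in S phase, when histone protein is needed to wrap the new DNA. Their mRNAs differ from other mRNAs in that they usually carry no poly(A) tail and instead end shortly after a stem-loop, which is bound by the protein encoded by *Slbp*. A small number of them can also be made with a poly(A) tail, mostly in cells that have stopped dividing. A poly(A)-selected library therefore records only those histone transcripts that have a tail or are carried along, and a level below is a level of that fraction of the RNA, not of all histone mRNA in the cell.

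The study asked how the H3K27 methyltransferase EZH2 shapes gene expression as B cells become plasmablasts. All 5 groups came from wild-type female C57BL/6J mice. Naive B cells (nB) were CD43- splenic cells, for which the labels give no stimulus and no drug. Activated B cells (actB), gated as B220+GL7+CD138-, and CD138+ plasmablasts (Pb) were sorted from CD43- cells after 3 days of culture with LPS, Il2 and Il5, with the EZH2 inhibitor GSK343 or with its vehicle DMSO. For Pb with GSK343 the labels name Il6 in place of Il5, whereas the methods give Il5 for every such culture, and which of them holds is not known. If the label holds, the drug and the cytokine cannot be told apart in Pb. Each group has 3 libraries, made from 500 ng of total RNA with a stranded kit and poly(A) selection beads.

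Between 19421830 and 26307413 reads were counted per library, so that a gene with 0 reads may have stood at up to 0.114 to 0.154 RPM (3 reads, in reads per 1000000 reads counted). The columns of nB replicates 1 and 2 differed by less than the sampling noise (chi-square per degree of freedom 0.00958, against 3.58 or more for every other pair within a group) and were counted as 1 sample, which leaves n = 2 for nB. In each cultured group the replicate 2 library stood apart from the other two on this measure (16.7 to 29.7 against 3.8 and 6.07 in actB, 7.64 to 11.4 against 3.58 and 3.68 in Pb). Naive B cells also held transcripts of other blood cells: the summed level of 4 myeloid markers was 167 to 204 RPKM in nB, 3.97 to 5.31 in actB with DMSO and 0.452 to 0.846 in Pb with DMSO. Summed T cell markers were at 34.8 to 36 RPKM in nB and at most 5.48 elsewhere, and 2 erythroid genes at 29.1 to 133 RPKM in nB against 8.78 to 12.4 in actB with DMSO. The 5 B cell markers, all detected, summed to 3076 to 3204 RPKM in nB and 903 to 926 in Pb with DMSO, and the 4 plasma cell markers measured to 169 to 185 and 1394 to 1521. The part of these other cells in the histone values of nB was not tested.

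The stem-loop is shown first, because it marks which transcripts normally lack a tail. The letters GGNNCT, a loop of any 4 letters and AGNNCC, in which all 6 stem positions pair, were searched for on the coding strand of mm9 within 120 bases after the annotated end of the coding sequence (GENCODE vM1). They were found once in 56 of the 64 genes, 25 to 62 bases past the coding end, and in 66 of 22365 protein-coding genes (0.295%), only 10 of which are outside the set. The 16 bases fall into 8 versions. The most common is held by 32 genes of H1, H2A, H2B and H3, and 2 further versions cover 9 and 8 genes. The lines below give the most common version as found in *Hist1h2ai*, the second as found in *Hist1h2bl*, and the version held by 8 of the 13 H4 genes as found in *Hist1h4k*, 5′ to 3′ with the stem in capitals and the loop in lower case.
Hist1h2ai, chr13:21808708-21808723, plus strand: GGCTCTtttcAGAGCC
Hist1h2bl, chr13:21807587-21807602, minus strand: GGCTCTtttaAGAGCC
Hist1h4k, chr13:21842019-21842034, minus strand: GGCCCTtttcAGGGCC
The letters were not found in *Hist1h2an*, *Hist1h2bp*, *Hist1h2bq*, *Hist1h2br*, *Hist2h2bb* and *Hist2h2be*, and *Hist2h3c2* and *Hist3h2bb-ps* have no annotated coding sequence.

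A tail needs a different end. The poly(A) signal AATAAA or ATTAAA lies in the last 40 bases of an annotated transcript of 16 of the 64 genes, against 71.6% of protein-coding genes. The annotated gene end lies at least 100 bases past the stem-loop in 17 of the 56 genes that have one. Both held for 11 genes, among them *Hist1h1c*, *Hist1h2ai*, *Hist1h2bc*, *Hist1h4i*, *Hist3h2a* and *Hist3h2ba*. The 29 genes measured well enough to be tested included 8 of the 16 with a signal and 21 of the 46 annotated without one.

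Histone genes are also near-copies of each other, which limits what reads of 50 bases can tell. The stretch below lies in the coding sequence of *Hist1h2ai* (chr13:21808471-21808520 of mm9, plus strand), occurs at 19 places in the genome and is held by 13 of the 15 H2A genes. It is shown because a read of this length from it could come from any of them.
Hist1h2ai, shared window: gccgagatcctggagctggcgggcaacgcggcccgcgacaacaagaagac
Of the 50-base windows of the coding sequence, 9.38% occur once in the genome for *Hist1h2ai*, 13.5% for *Hist1h2an*, 47.2% for *Hist1h2ak*, and 0 for *Hist1h2ao*, *Hist2h2aa1* and *Hist1h4m*. Among genes of 1 coding exon, all windows are at 1 place for *Hist1h1a*, *Hist1h1b*, *Hist1h1t*, *Hist2h2be* and *Hist4h4*, and 78.0% for *Hist1h1c*. These shares count single windows, whereas the reads were paired, so that a mate outside a shared stretch could still place a pair. How the authors treated reads that match several places is not given in the sources used here, and the levels of single H2A, H2B, H3 and H4 genes with few such windows are therefore uncertain. Reads were nonetheless not spread evenly over near-copies: *Hist1h2ah* shares 80.5% of the windows of *Hist1h2an* and had 0 or 1 read in every library. The deposited gene length equals the coding length in 29 of the 64 genes (*Hist1h2ai* among them, with 393 bases), so that reads of their untranslated ends do not enter these values.

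Transcript levels were low for most members. RPKM was computed as RPM per kilobase of the deposited length. The median of the mean levels over the 14 libraries was 0.435 RPKM, 39 genes were under 1 RPKM, 30 had at most 10 reads in every library, and the testis genes *Hist1h2aa* and *Hist1h2ba* had none. Of the 64, 29 genes (45.3%) passed the filter of at least 1 RPKM in at least 3 columns, compared with 52.1% of all genes. None of the 29 reached 1 RPKM in 1 group alone. *Hist2h2ac* passed only with nB, at 1.34 RPKM in replicates 1 and 2, which the filter took as separate columns, and 1.12 in replicate 3. Elsewhere it reached 1 RPKM only in Pb DMSO replicate 2 and Pb GSK343 replicate 3 (1.32). Its calls as lower than nB are therefore not independent of the filter. *Hist1h1a*, *Hist1h1b*, *Hist1h1d*, *Hist1h3g* and *Hist2h2bb* stayed under 1 RPKM in nB (at most 0.467, 0.585, 0.587, 0.573 and 0.531) and passed through cultured libraries. Their calls as higher than nB share this limit. So do calls against actB with DMSO of *Hist1h1d*, *Hist1h2bg* and *Hist2h2aa1*, which reached at most 0.655, 0.55 and 0.461 RPKM there. The counts of calls below include all of these. The other 35 reached at most 41 reads and 1.02 RPKM in any library and were not tested. Among the 29 were 5 genes of H1, 7 of H2A, 8 of H2B, 3 of H3 and 6 of H4.

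The highest member was *Hist1h2ai*, at a mean of 107 RPKM, followed by *Hist1h2an* at 31.8, the linker histone *Hist1h1c* at 23.2, *Hist1h2ak* at 22.3 and *Hist1h2ao* at 13.5. The order depends on the deposited lengths. In RPM, *Hist1h2ao* (13.8, length 1028 bases) stood above *Hist1h2an* (12.5) and *Hist1h2ak* (8.77), both of length 393. The highest H4 gene was *Hist1h4i* (13.2 RPKM), the highest H2B gene *Hist1h2bl* (12) and the highest H3 gene *Hist1h3i* (2.48). Outside the *Hist1* cluster, *Hist2h2be* (4.17), *Hist3h2a* (3.38) and *Hist4h4* (0.745) led their clusters.

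**Figure D1:**
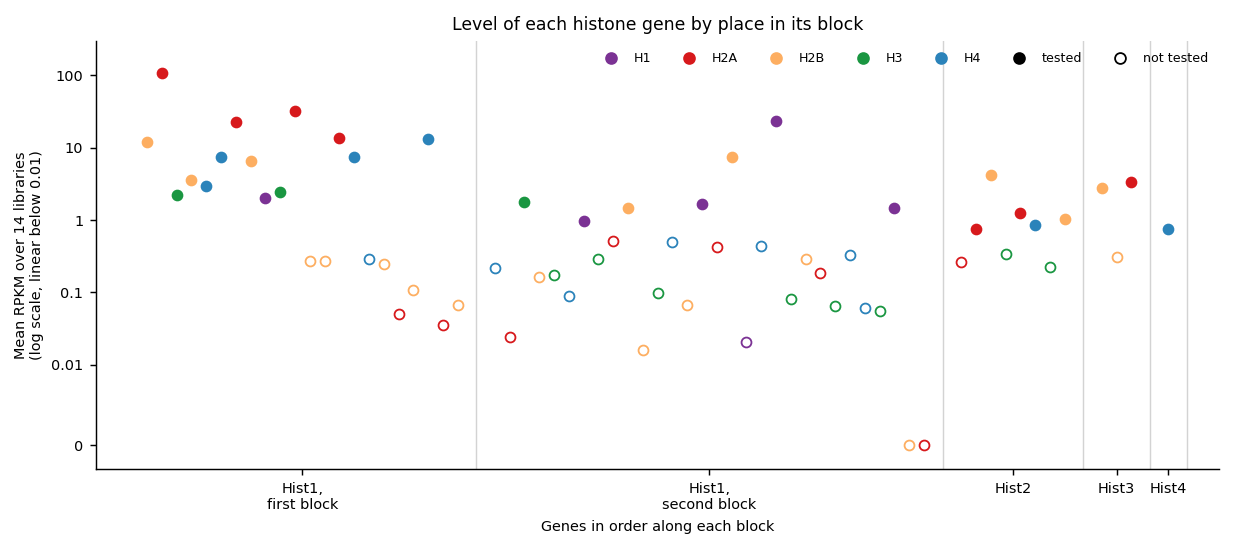
Mean RPKM of each of the 64 histone genes over 14 libraries (log scale, linear below 0.01), in order along each block of genes, coloured by histone type and filled where the gene was tested. All 14 genes of the first *Hist1* block that were tested lie at or above 1 RPKM, while most of the 30 genes of the second block lie below 1.

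The *Hist1* cluster on chromosome 13 of mm9 splits into 2 blocks, from 21807632 to 22135545 and from 23622919 to 24026720. The first block holds 22 genes, of which 14 were tested and had a mean of at least 1 RPKM. The second holds 30, of which 7 were tested and 6 reached 1 RPKM, with *Hist1h1c* the highest. *Hist2* spans 96023839 to 96082924 of chromosome 3, *Hist3* 58762413 to 58770176 of chromosome 11, and *Hist4h4* lies on chromosome 6 from 136752589 to 136752900.

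Several genes that face each other across a shared promoter region stood at unlike levels. Of 11 pairs of an H2A and an H2B gene whose starts lie 167 to 305 bases apart, *Hist1h2ai* and *Hist1h2bl* stood at 107 and 12 RPKM, *Hist1h2an* and *Hist1h2bp* at 31.8 and 0.276, and *Hist1h2ac* and *Hist1h2bc* at 0.424 and 7.33. These levels depend on the deposited lengths, which are 2493 and 728 bases in the last pair. Its means were 1.06 and 5.34 RPM. The 268 bases between the starts of *Hist1h2ai* and *Hist1h2bl* (chr13:21808013-21808280, plus strand) and the 172 between *Hist3h2a* and *Hist3h2bb-ps* (chr11:58768015-58768186, plus strand) are printed because the first H2A gene was higher and the second lower in cultured cells than in nB. Capitals mark CCAAT and the octamer ATTTGCAT, on either strand.
Hist1h2bl to Hist1h2ai: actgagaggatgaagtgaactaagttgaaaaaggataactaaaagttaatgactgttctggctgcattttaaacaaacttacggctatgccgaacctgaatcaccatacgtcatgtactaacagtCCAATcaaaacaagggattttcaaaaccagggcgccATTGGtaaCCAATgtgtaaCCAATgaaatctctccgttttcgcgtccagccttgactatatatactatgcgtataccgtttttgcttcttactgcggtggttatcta
Hist3h2bb-ps to Hist3h2a: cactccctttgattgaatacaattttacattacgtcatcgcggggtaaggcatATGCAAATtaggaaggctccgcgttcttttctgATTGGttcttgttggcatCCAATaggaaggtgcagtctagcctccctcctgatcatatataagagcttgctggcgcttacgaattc
CCAAT occurs 4 times in the first and 2 times in the second, and the octamer once in the second, while TATAAA and AAACACA, also searched, are in neither.

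Over the 300 bases from 250 before to 50 after each annotated start, CCAAT lay in 54 of the 64 genes (84.4%) and in 37.9% of 22367 protein-coding genes, TATAAA in 35 (54.7%, against 13.4%), the octamer in 16 (25%, against 1.73%) and AAACACA, known as the H1 box, in 10 (15.6%, against 6.42%), each counted on either strand. By type, the octamer was in 7 of 15 H2A and 9 of 19 H2B promoters and in none of the others, AAACACA was in 5 of 6 H1 promoters, and CCAAT was in 4 of 13 H4 promoters and all H1, H2A and H2B promoters.

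The reads of all 64 genes were most numerous in Pb. Their summed level was 128 and 135 RPM in nB, and 149, 129 and 144 RPM in actB with DMSO. In Pb with DMSO it was 195, 204 and 232 RPM, above every nB and actB library. With GSK343 it was 176, 160 and 179 RPM in actB, above the DMSO libraries, and 226, 248 and 241 RPM in Pb, overlapping with DMSO. Without *Hist1h2ai* the group means were 123 RPM in nB, 99.9 in actB with DMSO and 165 in Pb with DMSO, so that the order of the nB and actB means turned. No other member was left out in this way. With all 64 genes, the nB and actB libraries with DMSO overlapped.

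**Figure D2:**
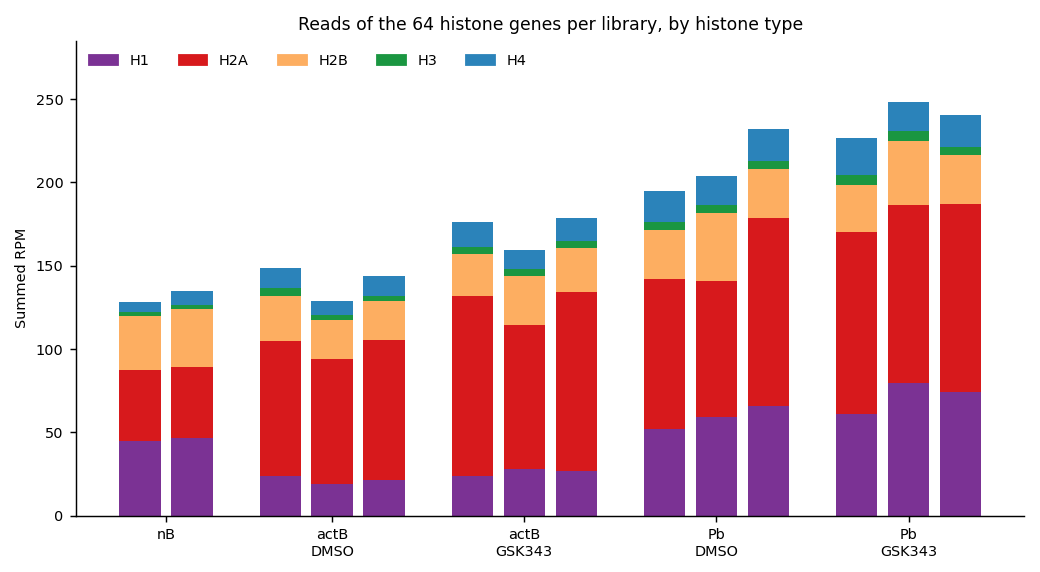
Summed RPM of the 64 genes in each of 14 libraries (bars, 1 per library), split by histone type. The H2A part is larger in every cultured library than in nB, the H1 part is smallest in actB, and the highest library is one of Pb with GSK343, at 248 RPM.

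The types made up this sum differently in each cell type. H2A genes summed to 42.6 ± 0.0866 RPM (SD, n = 2) in nB, 79.9 ± 4.49 (n = 3) in actB with DMSO and 94.9 ± 16.1 in Pb with DMSO. H1 genes summed to 45.8 ± 1.31 RPM in nB, 21.4 ± 2.25 in actB and 58.9 ± 6.81 in Pb, of which *Hist1h1c* gave the largest part. H4 genes summed to 7.04 ± 2.22, 11.1 ± 2.15 and 18.7 ± 0.811 RPM, and H3 genes, the lowest, to 2.2 ± 0.452, 3.42 ± 1.13 and 4.62 ± 0.361 RPM. H2B genes stood at 33.6 ± 1.83, 24.7 ± 2.01 and 33.3 ± 6.45 RPM.

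Between actB with DMSO and nB, histone genes moved in both directions. Of the 29 tested, 12 were higher (41.4%, where 40.9% of all 11299 genes tested were higher) and 7 lower (24.1%, against 36.3% of all genes), with limma at an adjusted p under 0.05. The median log2 difference was 0.27 for the members and 0.053 for all genes. The share of members called higher was thus close to that of all genes. Of the 21 genes of *Hist1*, 11 were higher and 2 lower, and of the 7 tested of *Hist2* and *Hist3*, 1 was higher and 5 lower. In bulk RNA, fewer cells of a type and less RNA per cell cannot be told apart.

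The 4 H2A genes *Hist1h2ai*, *Hist1h2ak*, *Hist1h2an* and *Hist1h2ao*, grouped after their values were seen, showed the 4 largest rises. The level of *Hist1h2ai* was 22.7 and 20.3 RPKM in nB and 110, 95.4 and 105 RPKM in actB with DMSO, with no overlap. Its log2 difference was 2.25 (SE 0.14, adjusted p = 1.82e-08 from limma). *Hist1h2an* was at 3.81 and 6.22 RPKM in nB and at 29.6, 26.2 and 29 RPKM in actB (log2 difference 2.47, SE 0.20). *Hist1h2ak* and *Hist1h2ao* differed by 2.21 (SE 0.13) and 2.78 (SE 0.21) on the same scale. These 4 genes took 10.7% of the members' reads in nB, 50.8% to 54.8% in actB with DMSO and 33.9% to 43.3% in Pb with DMSO. The ratio of *Hist1h2ai* to *Hist1h2ak*, taken in RPM, was 3.98 to 5.34 in nB and 4.32 to 4.97 in actB with DMSO, with overlap. The RPM ratio of *Hist1h2ai* to *Hist1h2ao* was 3.98 to 5.48 in nB and 2.53 to 3.5 in actB, with no overlap. In RPKM the second ratio is larger in every library, because the deposited length is 393 bases for *Hist1h2ai* and 1028 for *Hist1h2ao*.

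The linker histones did not move together. *Hist1h1c*, the H1.2 gene and the highest of its type, was at 25.6 and 26.5 RPKM in nB and at 8.82, 7.73 and 8.18 RPKM in actB with DMSO, a log2 difference of -1.63 (SE 0.13, adjusted p = 1.07e-07 from limma). By contrast, *Hist1h1a* (0.29 and 0.467 RPKM in nB, 2.37, 1.11 and 2.21 in actB) and *Hist1h1b* (0.516 and 0.585 RPKM in nB, 2.58, 2.53 and 2.51 in actB) were higher in actB, by 1.73 (SE 0.28) and 1.80 (SE 0.17). No nB library of *Hist1h1a* or *Hist1h1b* reached an actB library. *Hist1h1d* and *Hist1h1e* were not called, and *Hist1h1t*, the testis linker histone, was at no more than 0.0899 RPKM in any library.

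The falls in actB were those of *Hist2h2aa1*, *Hist3h2a*, *Hist1h2bg*, *Hist3h2ba*, *Hist1h1c*, *Hist2h2ac* and *Hist2h2be*. *Hist3h2a*, an H2A gene, was at 9.68 and 9.39 RPKM in nB and at 1.63, 1.79 and 1.37 RPKM in actB with DMSO, a log2 difference of -2.41 (SE 0.24, adjusted p = 1.07e-06 from limma). *Trim17*, whose exons overlap those of *Hist3h2a* on the same strand, went from 0.608 to 0.917 RPM in nB to 1.61 to 1.94 RPM in actB, the other way. How reads of the shared exons were assigned is not known, and the part of *Trim17* in the value of *Hist3h2a* was not tested. *Hist2h2aa1*, none of whose windows is found at 1 place only, was at 3.53 and 3.44 RPKM in nB and 0.38, 0.461 and 0.37 RPKM in actB, a log2 difference of -2.52 (SE 0.20). Its exons overlap those of an H3 gene on the same strand, and its deposited length is 2337 bases, against an annotated transcript of 578. The part of that H3 gene in its value was not tested. *Hist3h2ba*, an H2B gene of the cluster of *Hist3h2a*, fell from 5.7 and 6.69 to 1.98, 1.6 and 1.66 RPKM (-1.69, SE 0.21). A poly(A) signal is annotated in 4 of these 7 genes and in 2 of the 12 that were higher, *Hist1h2ai* and *Hist1h4i*, which is given as a count with no test. Without nB replicate 1 and 2, the calls of *Hist2h2be* (adjusted p = 0.051 from limma) and *Hist2h2ac* (0.0589) were lost, as was that of *Hist1h2bm* among the rises. The rise of *Hist2h2bb* (0.75, SE 0.32, adjusted p = 0.0462 from limma, groups overlapping) was called in 5 of 14 fits that leave out a library and in 3 of 6 other settings.

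**Figure D3:**
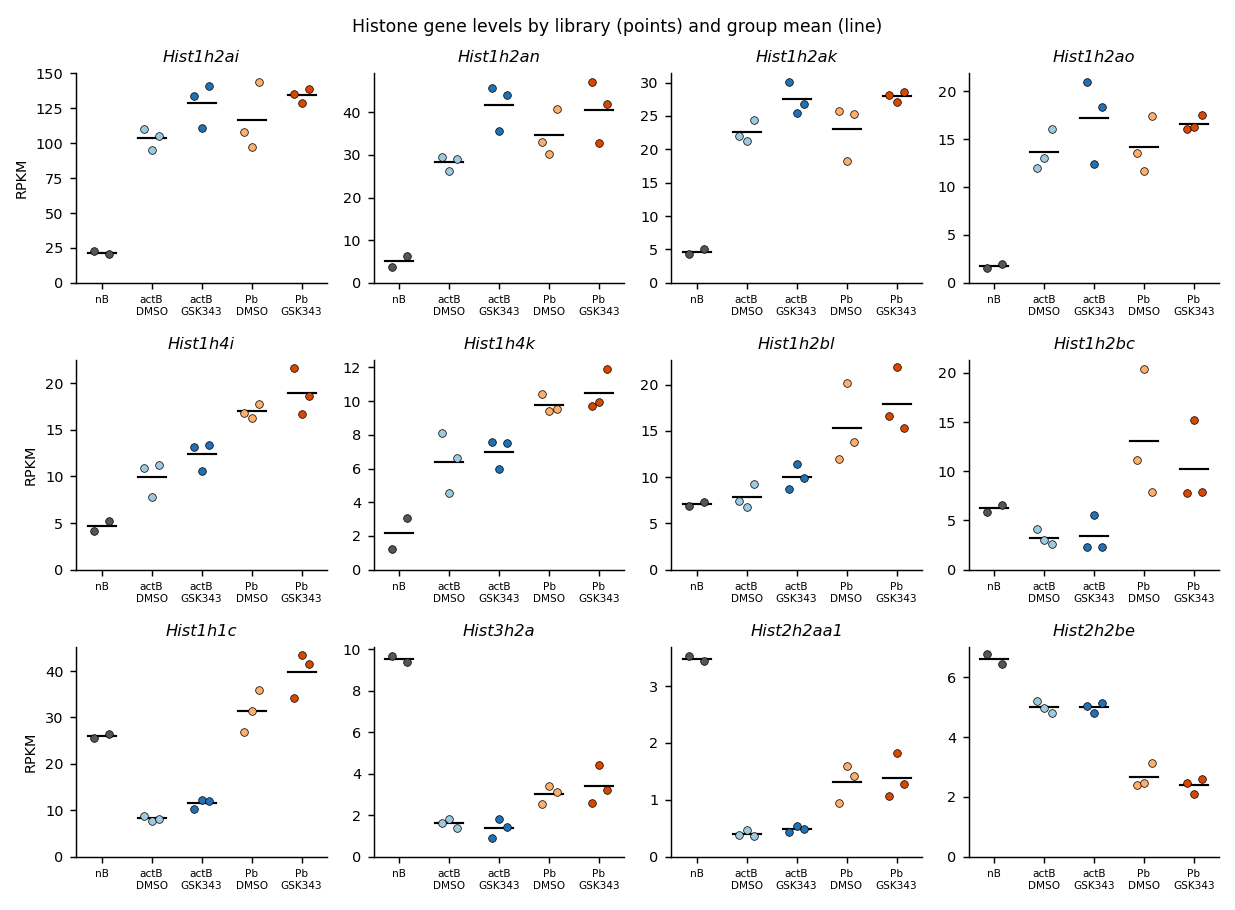
RPKM of 12 histone genes in each library (points) with the group mean (line), linear axes from 0, each gene on its own scale. *Hist1h2ai*, *Hist1h2an*, *Hist1h2ak* and *Hist1h2ao* are high in every cultured group, *Hist1h1c* and *Hist1h2bc* are lowest in actB, and *Hist3h2a*, *Hist2h2aa1* and *Hist2h2be* are highest in nB.

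Between Pb with DMSO and nB, more members were higher. Of the 29, 18 were called higher (62.1%, against 39.5% of all genes tested) and 5 lower (17.2%, against 41.1%), and the median log2 difference was 1.05 for the members and -0.022 for all genes. The rises lay in *Hist1*, with 17 of its 21 tested genes, and in *Hist2h2bb*. Without nB replicate 1 and 2, 14 genes were called higher. The 5 lower genes were again of *Hist2* and *Hist3*, and among them the call of *Hist2h2ac* (-0.73, SE 0.29, adjusted p = 0.0362 from limma) held in 10 of 14 fits that leave out a library and in 3 of 6 other settings.

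By type, 3 of 5 H1, 4 of 7 H2A, 4 of 8 H2B, 3 of 3 H3 and 4 of 6 H4 genes were higher in Pb than in nB. *Hist1h4i*, an H4 gene, was at 4.12 and 5.2 RPKM in nB and at 16.8, 16.3 and 17.8 RPKM in Pb, a log2 difference of 1.82 (SE 0.16, adjusted p = 3.14e-07 from limma). *Hist1h4k* was at 1.25 and 3.08 RPKM in nB and at 10.4, 9.41 and 9.55 RPKM in Pb (2.16, SE 0.28). *Hist1h3i*, the highest H3 gene, was at 1.08 and 0.994 RPKM in nB and at 2.87, 2.33 and 2.69 RPKM in Pb (1.16, SE 0.37, adjusted p = 0.0112 from limma), a call lost without nB replicate 3 (adjusted p = 0.0635 from limma). *Hist1h1c*, at 26.8, 31.3 and 36 RPKM in Pb, was above nB by 0.26 (SE 0.13), which did not pass the test (adjusted p = 0.0766 from limma).

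*Hist3h2a* (2.53, 3.39 and 3.14 RPKM in Pb, -1.59, SE 0.24), *Hist3h2ba* (-1.39, SE 0.21), *Hist2h2aa1* (-1.27, SE 0.20) and *Hist2h2be* (-1.25, SE 0.11) were lower in Pb than in nB. *Hist2h2be* carries no stem-loop letters in the searched window, has a poly(A) signal and is unique in sequence over its whole coding part. It was at 6.78 and 6.44 RPKM in nB, 5.21, 4.97 and 4.8 in actB with DMSO and 2.38, 2.47 and 3.14 in Pb with DMSO, so that the 3 cell types did not overlap.

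**Figure D4:**
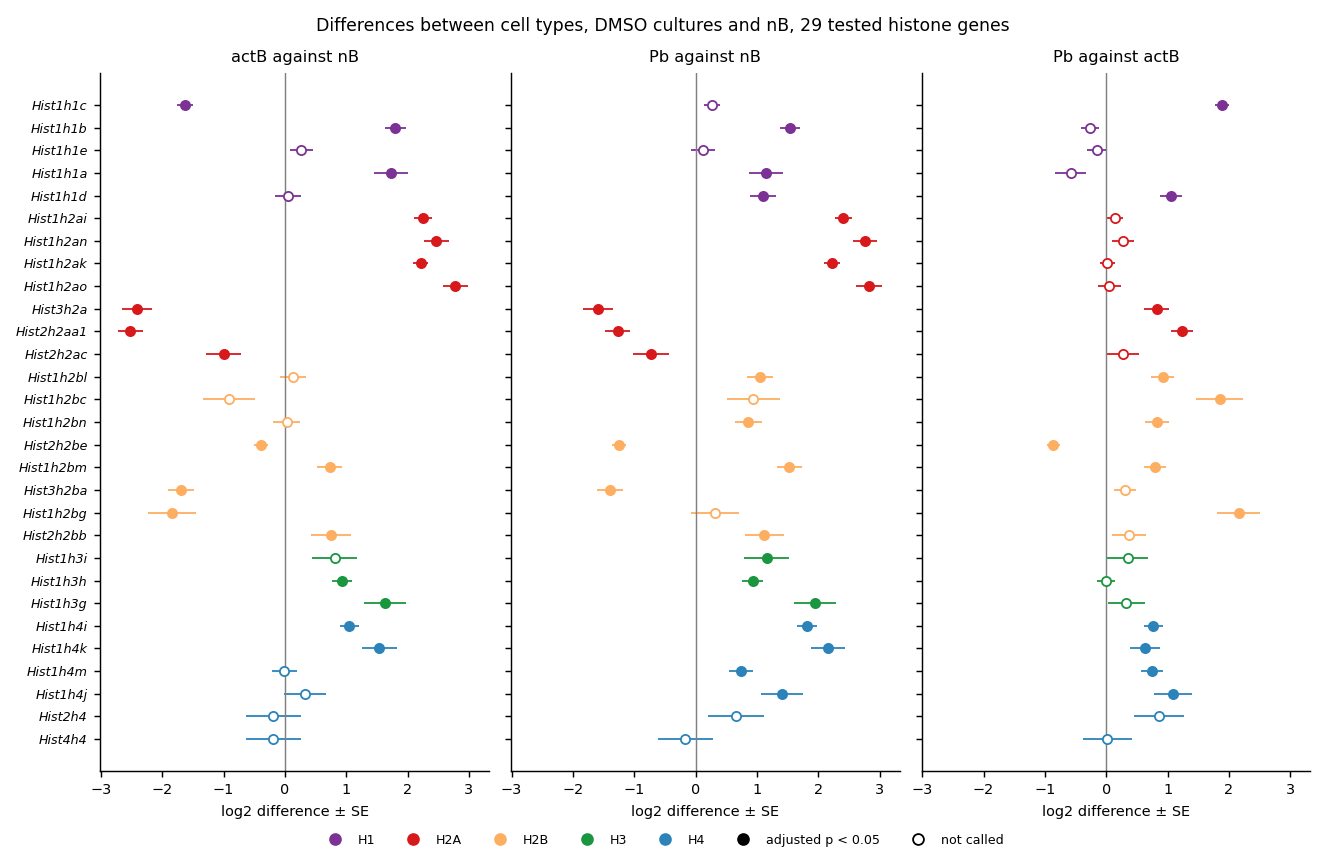
Log2 difference ± SE of the 29 tested genes between cell types, without GSK343, coloured by histone type and filled where the adjusted p is under 0.05. The 4 highest H2A genes lie above 2 against nB in both actB and Pb, *Hist3h2a* and *Hist2h2aa1* lie below -1, and most members lie above 0 between Pb and actB.

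Between Pb and actB with DMSO, 13 of the 29 genes were higher (44.8%, against 27.3% of all genes) and 1 lower (3.45%, against 42.4%). The median log2 difference was 0.37 for the members and -0.116 for all genes tested, which median scaling of the libraries moved to -0.005. The 4 H2A genes that rose most in culture were not among the calls: *Hist1h2ai*, for example, stood at 108, 97 and 144 RPKM in Pb and overlapped with actB. The genes called were 2 of H1, 2 of H2A, 5 of H2B and 4 of H4, and no H3 gene.

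*Hist1h1c* rose from 8.82, 7.73 and 8.18 RPKM in actB to 26.8, 31.3 and 36 RPKM in Pb, a log2 difference of 1.89 (SE 0.11, adjusted p = 1.47e-08 from limma). *Hist1h2bg*, an H2B gene of the same block, was at 0.55, 0.135 and 0.402 RPKM in actB and at 2.34, 1.99 and 2.81 RPKM in Pb (2.16, SE 0.35). *Hist1h2bc* was at 4.12, 3.02 and 2.6 RPKM in actB and at 11.1, 20.4 and 7.86 RPKM in Pb (1.85, SE 0.38), and the Pb values differed widely among themselves. *Hist1h1c* and *Hist1h2bg* had been lower in actB than in nB, and for *Hist1h2bc* that difference, -0.91 (SE 0.43), did not pass the test (adjusted p = 0.0711 from limma). *Hist1h1d*, at 0.624, 0.655 and 0.54 RPKM in actB and 1.35, 1.71 and 1.53 RPKM in Pb, rose by 1.05 (SE 0.18). *Hist2h2aa1* (1.24, SE 0.18) and *Hist3h2a* (0.82, SE 0.21) rose as well, while both stayed below nB.

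H2B and H4 genes of the first *Hist1* block were among the rises too. *Hist1h4j*, an H4 gene, rose by 1.09 (SE 0.31) from a mean of 1.82 to 4.17 RPKM. *Hist1h2bl* was at 7.43, 6.75 and 9.3 RPKM in actB and 12, 20.2 and 13.8 RPKM in Pb (0.92, SE 0.19). *Hist1h4i* and *Hist1h4m* rose by 0.77 (SE 0.15) and 0.75 (SE 0.18). *Hist1h4k* rose by 0.63 (SE 0.25), a call that was lost in 12 alternatives, with an adjusted p of up to 0.173 from limma without actB DMSO replicate 2. It held in the fit blocked by replicate number (adjusted p = 0.00236 from limma) and with TMM factors (adjusted p = 0.0252 from edgeR). *Hist2h2be* fell by 0.86 on the log2 scale (SE 0.10, adjusted p = 7.06e-06 from limma). Blocked by replicate number, the fit called *Hist1h1a* lower as well (adjusted p = 0.0454 from limma), which makes 2 lower genes, and *Hist1h2an* higher (0.0112), which makes 14 higher. In that fit 46.1% of all genes were lower and 30.1% higher.

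With GSK343, the calls on histone genes depended on whether the fit used the replicate number. The fit without it is given first. In actB, 1 of the 29 genes was called higher (3.45%, against 8.20% of all genes tested) and 0 were called lower (against 2.16%), and with no adjustment 6 were higher and 0 lower at a p under 0.05, where 25% of all genes were under it in either direction. The median log2 difference was 0.20 for the members and 0.028 for all genes, and 23 of the 29 members and 58% of all genes lay above 0. The differences of the members ranged from -0.22 for *Hist3h2a* to 0.55 for *Hist1h2an*, with SE of 0.10 to 0.41. The edgeR test on recovered reads called 2 higher and 0 lower.

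The gene called was *Hist1h1c*, at 8.82, 7.73 and 8.18 RPKM with DMSO and 10.3, 12.2 and 11.9 RPKM with GSK343, a log2 difference of 0.46 (SE 0.11, adjusted p = 0.0227 from limma). All 3 GSK343 libraries lay above the DMSO libraries, and the call was lost without DMSO replicate 2 or 3 or GSK343 replicate 2 or 3 (adjusted p up to 0.0817 from limma). *Hist1h2an* was at 29.6, 26.2 and 29 RPKM with DMSO and 45.6, 35.6 and 44 RPKM with GSK343 (0.55, SE 0.18, adjusted p = 0.0695 from limma), and edgeR called it together with *Hist1h1c*. *Hist1h2ai* was at 134, 111 and 141 RPKM with GSK343, above the 3 DMSO values, with a log2 difference of 0.31 (SE 0.13, adjusted p = 0.156 from limma). In the fit blocked by replicate number, 5 of the 29 genes were called higher, *Hist1h1c*, *Hist1h2ai*, *Hist1h2an*, *Hist1h2bm* and *Hist1h4i*, where 14.7% of all genes were. That fit called 0 lower, against 6.24% of all genes. Beside these values, the summed myeloid markers were at 7.89 to 13.6 RPKM in actB with GSK343 against 3.97 to 5.31 with DMSO. Of these 4 markers, 1 was called higher (*Itgam*) and 0 lower. The summed plasma cell markers were at 349 to 404 RPKM against 327 to 339, and 1 of these 4, *Sdc1*, was called higher (0.41, SE 0.11, adjusted p = 0.0422 from limma), at 0.965 against 0.665 RPKM. The part of either list in the result was not tested.

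In Pb, 0 genes were called higher (against 7.90% of all genes tested) and 0 lower (against 5.0%) by limma, as by edgeR, and with no adjustment 2 were higher and 0 lower at a p under 0.05, against 26.9% of all genes in either direction. The median log2 difference was 0.14, against 0.003 for all genes, and the range was -0.60 for *Hist4h4* to 0.55 for *Hist1h3g*. *Hist1h1c* was at 26.8, 31.3 and 36 RPKM with DMSO and at 34.2, 43.4 and 41.5 RPKM with GSK343, which overlap (0.34, SE 0.11, adjusted p = 0.0679 from limma). *Hist1h2ak* was at 25.8, 18.2 and 25.3 RPKM with DMSO and 28.1, 27.1 and 28.6 RPKM with GSK343, with no overlap (0.29, SE 0.12, adjusted p = 0.147 from limma). With that block these 2 genes were called higher (adjusted p = 0.0345 and 0.0443 from limma), where 13.6% of all genes were. The summed B cell markers were at 745 to 877 RPKM with GSK343 against 903 to 926 with DMSO, with 2 of 5 called lower. Summed plasma cell markers were at 1460 to 1548 RPKM against 1394 to 1521, with 1 of 4 called higher and 1 lower. Summed myeloid markers were at 0.913 to 1.17 RPKM against 0.452 to 0.846, with 0 called. The part of these lists in the result was not tested.

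The difference of the GSK343 effects between Pb and actB was tested by an interaction term. It called 0 members higher (against 0.0974% of all genes tested) and 0 lower (against 0.150%) in limma, as in edgeR, with 0 and 2 at an unadjusted p under 0.05 (9% of all genes in either direction). The differences ranged from -0.63 to 0.36 with SE of 0.14 to 0.57.

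**Figure D5:**
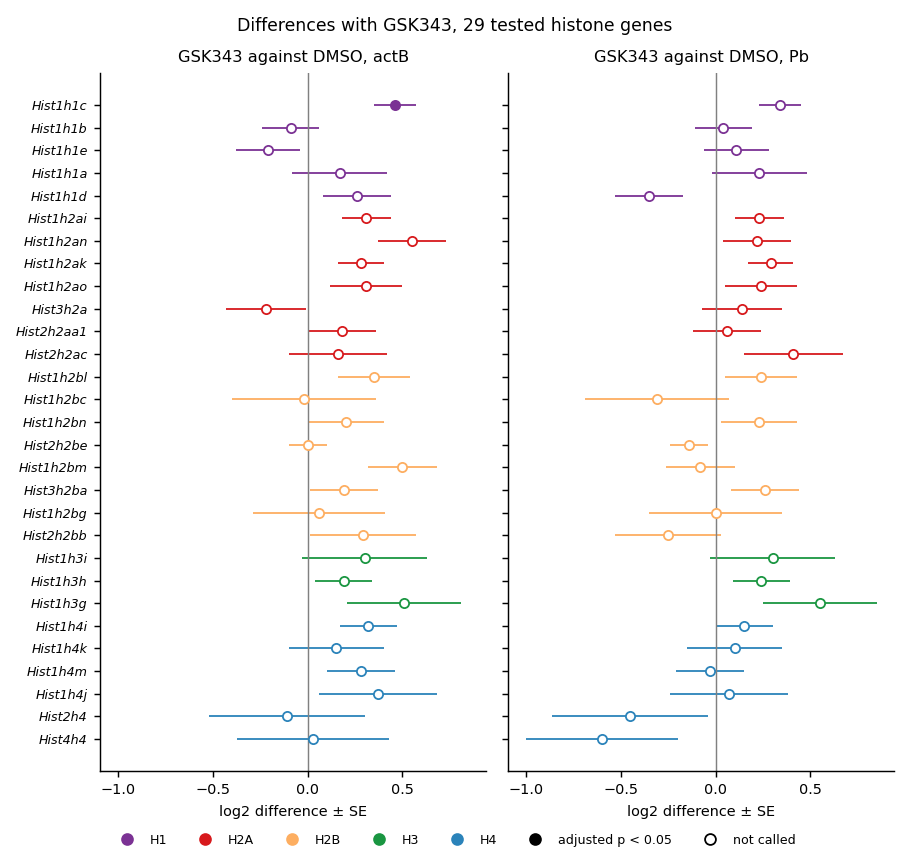
Log2 difference ± SE of the 29 tested genes between GSK343 and DMSO in actB (left) and Pb (right), coloured by histone type and filled where the adjusted p is under 0.05. In this fit without a replicate block, *Hist1h1c* in actB is the only filled point, and 23 of 29 points in actB and 20 of 29 in Pb lie above 0.

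The lists of genes around histone production were described the same way, with no set test. Over all 11299 genes tested, 40.9% were higher and 36.3% lower in actB than in nB, and 39.5% and 41.1% in Pb than in nB. Between Pb and actB, 27.3% of all genes were higher and 42.4% lower. In a list of 24 S phase genes, all tested, 23 were higher and 1 lower in actB than in nB (median log2 difference 2.43) and 24 were higher in Pb (2.30). Between Pb and actB, 4 of them were higher and 10 lower (median -0.11). Of 16 histone chaperones tested, 15 were higher in actB and 12 in Pb than in nB, and 11 were lower in Pb than in actB. Of 18 genes of histone mRNA transcription, 3′ processing and decay, 13 were higher and 3 lower in actB than in nB, and 2 were higher and 12 lower in Pb than in actB. Between GSK343 and DMSO, limma called 0 of the S phase genes and 0 of the chaperones in either cell type. An unadjusted p under 0.05 marked 1 S phase gene higher and 1 chaperone lower in each. Over all genes, 25% in actB and 26.9% in Pb were under it in either direction. Of the processing genes, 1 was lower in actB (*Npat*, against 2.16% of all genes) and 3 were lower in Pb (*Npat*, *Eri1* and *Zcchc11*, against 5.0%). None of them was called higher, against 8.20% and 7.90% of all genes.

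Some of these act on histone mRNA directly. *Slbp*, which binds the stem-loop, was at 41.1 ± 2.72 RPKM (SD, n = 2) in nB, 89.5 ± 9.04 (n = 3) in actB with DMSO and 76 ± 3.87 in Pb with DMSO (log2 difference of actB to nB 1.11, SE 0.10). *Npat*, an activator of histone gene transcription in S phase, was at 6.83 ± 0.311 RPKM in nB, 14.6 ± 0.441 in actB and 7.71 ± 0.22 in Pb. It fell with GSK343 by 0.19 on the log2 scale in actB (SE 0.05, adjusted p = 0.0335 from limma) and by 0.18 in Pb (SE 0.05, adjusted p = 0.0395 from limma). *Casp8ap2* was at 10.3 ± 0.117, 21.8 ± 0.75 and 17.7 ± 0.402 RPKM in nB, actB and Pb with DMSO. *Lsm10* and *Lsm11*, subunits of the U7 snRNP that helps to cut histone mRNA, were at 12.5 and 2.04 RPKM in nB, 11.4 and 2.6 in actB and 10.1 and 1.83 in Pb.

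The genes listed as replication-independent histones, whose mRNAs mostly have poly(A) tails, included levels above those of every member. *H3f3a* and *H3f3b*, which encode H3.3, were at 516 ± 16.2 and 448 ± 6.02 RPKM in nB and fell in actB with DMSO to 232 ± 9.31 and 249 ± 17.4 RPKM, by 1.15 (SE 0.06) and 0.85 (SE 0.09) on the log2 scale. *H2afz*, which encodes H2A.Z, rose from 94.2 ± 1.96 to 316 ± 44.1 RPKM, by 1.73 (SE 0.13). Of the 9 genes of this list tested, 4 were higher and 3 lower in actB than in nB, near the shares of all genes (40.9% and 36.3%). Between Pb and actB, 1 was higher and 6 were lower, where 27.3% and 42.4% of all genes were. With GSK343, limma called 1 of them higher in actB and 1 in Pb, against 8.20% and 7.90% of all genes, and 0 lower.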

How the data were processed

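Per the methods, 50 bp paired-end reads were mapped to mm9 with TopHat2 and the UCSC known genes, and reads that overlap exons of each Entrez gene were counted with GenomicRanges. The authors deposited RPM, reads per 1000000 reads counted, in a table named for RPKM, together with a gene length. The columns sum to 1000000, and dividing by the worth of 1 read gave whole numbers for 100.0% of values (within 0.05 reads), which were used as counts. Genes without a symbol (92, at most 0.09% of reads) were left out. Strand use in counting and the treatment of reads with several matches are not given in the sources used here.

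RPKM was computed from RPM and the deposited length. All 14 libraries were fitted with limma 3.58.1 (R 4.3.3; group means, eBayes with trend) on log2(RPKM + 0.25), for the 11299 genes with at least 1 RPKM in at least 3 of 15 columns. Differences are on this scale, which understates changes of low genes, and come from a fit with no term for the replicate number unless a block is named. Adjusted p-values are two-sided, by Benjamini-Hochberg over all genes tested. The study describes 3 biological replicates per cell type, without saying whether these were separate animals or cultures, and p-values measure the spread between them. Exact permutations of 3 against 3 cannot go below 0.1. The floors given for 0 reads cover counting error only, whereas SD and SE come from the spread between libraries. The fit was tested on simulated data. Alternatives were other pseudocounts, filters and scalings, edgeR 4.0.16 on the recovered counts, all 15 columns, a replicate block and each library left out.

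The replicate numbers are those of the sample titles, which carry m1, m2 or m3 in every group and do not say what m stands for. They go with a pairing of the cultured libraries, most clearly for replicates 2. Deviations from the group means correlated at 0.158 to 0.502 (replicates 1), 0.435 to 0.713 (replicates 2) and 0.219 to 0.356 (replicates 3), in 6 pairs of libraries each. Over 36 pairs of different numbers they correlated at -0.603 to 0.37, which overlaps the ranges of replicates 1 and 3.

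The members and lists were chosen with earlier results of these data known. Named members are the 10 highest by RPKM, the highest of each type and cluster, the 3 largest rises and falls per comparison among calls without overlap, and the linker histones, and outside the set *Slbp*, *Npat*, *Casp8ap2*, *Lsm10*, *Lsm11* and the 3 highest replication-independent histone genes. Beyond this rule, *Hist1h2aa*, *Hist1h2ac*, *Hist1h2ah*, *Hist1h2ba*, *Hist1h2bm*, *Hist1h2bp*, *Hist1h2bq*, *Hist1h2br*, *Hist1h3g*, *Hist1h4j*, *Hist2h2ac*, *Hist2h2bb*, *Hist2h3c2*, *Hist3h2bb-ps*, *Trim17*, *Sdc1*, *Itgam*, *Eri1* and *Zcchc11* were named after their values were seen. Loci, promoters and windows come from the mm9 genome and GENCODE vM1.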

Additional observations from a re-analysis of the deposited data

How the results depend on the processing

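Of the 42 calls on the members that the naming rule gave, 5 were lost in some alternative and 0 turned in direction (of the recomputed calls, 937 held and 19 were lost). Of the members named beyond that rule, *Hist2h2ac*, *Hist1h2bm*, *Hist1h4j* and *Hist2h2bb* lost calls against nB in some fits as well. The counts moved as follows. Between actB and nB, 12 higher genes became 7 with at least 3 RPKM (18 members tested), and 6 with edgeR (TMM or RLE factors, 17 tested). Between Pb and nB, 18 became 28 with no filter (62 tested). Between Pb and actB, 1 lower gene became 2 with a pseudocount of 1 and with all 15 columns. With GSK343 in actB, 1 higher gene became 2 with quantile normalization and with edgeR (TMM or RLE), and in Pb 0 became 1 with all 15 columns. The replicate block, which allows for a pairing by replicate number, gave 2 lower genes between Pb and actB. With GSK343 it gave 5 higher genes in actB and 2 in Pb, where 14.7% and 13.6% of all genes were higher. It could not be run against nB, whose merged library carries 2 numbers. Why these counts moved was not tested, beyond the number of genes tested where it is given.

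Leaving out 1 library at a time gave 10 to 14 higher and 5 to 8 lower genes between actB and nB, 14 to 19 and 4 to 5 between Pb and nB, and 12 to 13 and 1 to 2 between Pb and actB (2 without Pb DMSO replicate 1 or actB DMSO replicate 2). With GSK343 it gave 0 to 3 higher genes in actB, 0 to 2 higher and 0 to 1 lower in Pb. The value of 0 in actB came without DMSO replicate 2 or 3 or GSK343 replicate 2 or 3, and 3 without either nB library. In Pb, 2 came without DMSO replicate 3, 1 without GSK343 replicate 1, and the lower gene, *Hist1h1d*, without GSK343 replicate 2. Where 1 nB library was left, it was assumed to vary like the other groups. Without *Hist1h2ai*, summed RPM was 123 in nB, 99.9 and 121 in actB with DMSO and GSK343, and 165 and 186 in Pb. The 35 members kept out by the filter reached at most 41 reads in any library, so that their values, and the calls made with no filter, rest on few reads.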
